A study of Mus musculus with 6 samples.

Results

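The genes described here are 7 complement factors and receptors, C3, Cfb, Cfp, C3ar1, C5ar1, C5ar2 and Cd55, out of 41549 genes in a table of mRNA read counts from mouse M2 macrophages (Mφs). They were picked by gene symbol, with earlier results of these data known, and all 7 had enough reads to be tested. The macrophages were bone marrow-derived Mφs (BMDMs) of adult wild-type C57BL/6N mice, grown with macrophage colony-stimulating factor (M-CSF). While still naïve (M0), they were transfected with lipofectamine and a locked nucleic acid antisense inhibitor of 5′tRF-Glu(CTC), a fragment of the 5′ part of a tRNA for glutamate (αGlu), or with a control inhibitor of the same chemistry (Ctr). IL-4 and IL-13 were then given to both groups to polarize the cells into anti-inflammatory M2 Mφs, so every library is from transfected and polarized cells, and the question is how the levels of these genes differed when the fragment was inhibited. Each group had 3 libraries. The inhibition was transient, the fragment itself was not measured in these mRNA libraries, and no untransfected or M0 cells were part of the comparison.

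The antisense and the fragment end it was designed against are shown because they define the αGlu group, written 5′ to 3′ with DNA letters, and capitals mark the bases of the target, positions 2 to 21 from its 5′ end, that are complementary to the antisense.
antisense: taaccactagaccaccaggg
target: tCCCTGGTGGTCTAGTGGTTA

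Complement is a cascade of secreted proteins that coats microbes and dying cells and calls in leukocytes. Its central protein, C3, is cut by enzymes called convertases. In the alternative pathway the convertase is built from a C3 fragment and the protease factor B (Cfb), and properdin (Cfp) stabilizes it. The fragments released from C3 and C5 are sensed by the receptors encoded by C3ar1, C5ar1 and C5ar2, and decay-accelerating factor (Cd55) takes convertases apart on the surface of the body's own cells. The liver makes most plasma complement, while macrophages make several components locally and carry the receptors.

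Total counts were 17912831 to 30386653 reads per library, and scaling factors by the trimmed mean of M-values (TMM) lay between 0.951 and 1.07. Every pair of libraries differed by more than sampling noise, with a chi-square of at least 19.8 per gene. αGlu 1 stood apart from its group. Over the genes tested, its log2 CPM (reads scaled to a common library total) correlated at a Pearson r of 0.929 with both other αGlu libraries and at 0.966 to 0.982 with the Ctr libraries, while αGlu 2 and αGlu 3 correlated at 0.992. The estimates below are therefore also given without αGlu 1 for the 7 genes, and for other complement genes where that changed a call. αGlu 1 was singled out after its values were seen, because it resembled Ctr. Leaving it out thus favours a difference between the groups, and p-values and calls from that fit are no independent support. Over all genes, that fit called 2290, against 0 with all 6 libraries. All 7 macrophage identity markers were above 1 CPM, with a summed level of 11315 to 12878 CPM in Ctr and 12271 to 17479 CPM in αGlu. Single markers went both ways in αGlu 2 and αGlu 3. Cd68 had 1237 and 1144 CPM there, against 1809 to 2063 CPM in Ctr, and Mertk was also lower. Cd14 had 293 and 240 CPM there, against 17.3 to 30.1 CPM in Ctr, and Adgre1, Csf1r, Fcgr1 and Lyz2 were also higher. Of 12 neutrophil markers, 4 were above 1 CPM on average, and the defining genes Ly6g and Retnlg were at 0 in all libraries. The sum of the 12 was 129 to 211 CPM in Ctr and 241 to 636 CPM in αGlu, mostly from Csf3r. Csf3r had 536 and 607 CPM in αGlu 2 and αGlu 3, against 103 to 158 CPM in Ctr. S100a8 was also higher there, at 2.11 and 1.32 CPM against 0.510 to 0.909 CPM in Ctr. Mpo was lower there, at 0.0944 and 0.0367 CPM against 0.418 to 2.59 CPM in Ctr. Mmp8, at 31.6 and 26.7 CPM there, lay inside its Ctr range. Summed fibroblast markers reached at most 7.18 CPM, mast cell and basophil markers 5.16 CPM, dendritic cell markers 1.25 CPM and lymphocyte markers 0.472 CPM. Whether other cells contributed to the results was not tested. In bulk RNA, fewer cells of a type and less RNA per cell cannot be told apart.

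The 3 secreted components C3, Cfb and Cfp were present at higher levels in αGlu cells, by a log2 fold change of 3.82 for C3, 6.30 for Cfb and 1.69 for Cfp. Decay-accelerating factor Cd55 was also higher, by 3.19. For Cfp and Cd55 the higher levels were in αGlu 2 and αGlu 3, while αGlu 1 lay inside the Ctr range. C5ar2 was lower, at -1.26, while C3ar1 and C5ar1 had estimates near 0. None of the 7 genes passed the test, edgeR's quasi-likelihood test with a limit of 0.1 on the Benjamini-Hochberg adjusted p and of 1 on the size of the log2 fold change, in which 0 of 11933 genes (0%) were called. At an unadjusted p under 0.05 there were 5 of the 7 genes, 4 higher and 1 lower, against 24.7% of all genes tested. Calls depended on the library set and on the tool. DESeq2 on all 6 libraries called 4 of the 7 genes higher and 1 lower, against 4.23% and 3.93% of its 13707 genes. The quasi-likelihood test without αGlu 1 also called 4 higher and 1 lower, against 8.05% and 10.5% of 12340 genes, and limma-voom on all 6 called 0. The median log2 fold change was 1.69 over the 7 genes and 0.02 over all genes tested. Since the 7 genes were chosen with earlier results of these data known, these medians and shares are a description only.

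**Figure D1:**
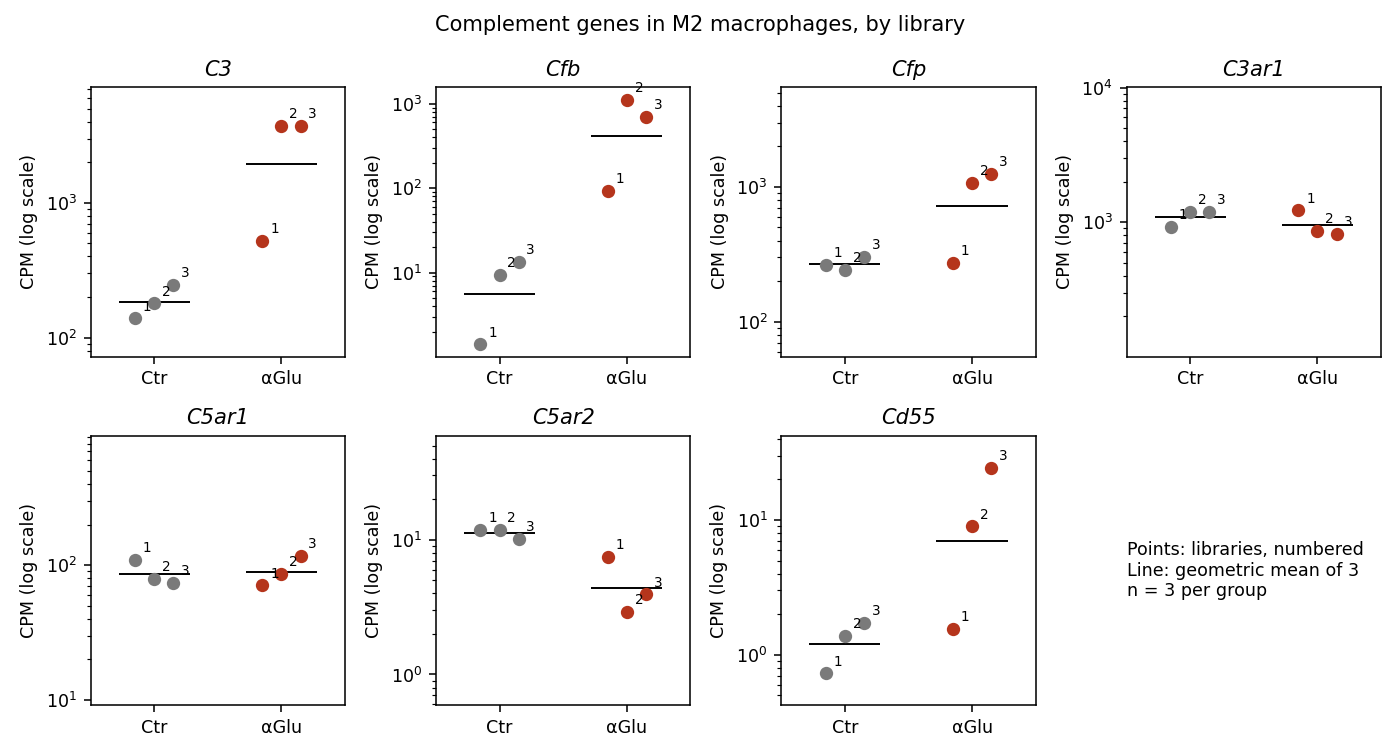
CPM of the 7 complement genes in each library on log axes, with Ctr libraries in grey, αGlu libraries in red, library numbers beside the points and a line at the geometric mean of 3 libraries. C3 and Cfb lie above the Ctr points in all 3 αGlu libraries, C5ar2 lies below them in all 3, and αGlu 1 lies among the Ctr points for Cfp and Cd55.

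C3, the protein on which all complement pathways converge, is encoded on the minus strand at chr17:57203970-57228136 (GRCm38; ENSMUSG00000024164). It stood at 139 CPM in Ctr 1, 179 CPM in Ctr 2 and 247 CPM in Ctr 3. In the αGlu group it stood at 523 CPM in αGlu 1, 3726 CPM in αGlu 2 and 3748 CPM in αGlu 3. All αGlu libraries were above all Ctr libraries, with the lowest αGlu value 2.12 times the highest Ctr value, and αGlu 2 and 3 were far above αGlu 1. Against the Ctr mean of 188 ± 54.8 CPM (SD, n = 3), the level was 2.78 times as high in αGlu 1, 19.8 times in αGlu 2 and 19.9 times in αGlu 3. The reads behind these values numbered 3050, 4283 and 5324 in Ctr and 9127, 118359 and 102177 in αGlu, so counting error was small beside the spread between libraries. The log2 fold change was 3.82 ± 0.79 (SE; 95% CI 1.90 to 5.75), the 60th highest of 11933, with an adjusted p of 0.149 in edgeR's quasi-likelihood test. Without αGlu 1 the estimate was 4.31 with an adjusted p of 7.52e-05, and DESeq2 on all libraries gave an adjusted p of 1.50e-06.

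Cfb, the protease of the alternative convertase, lies on the same chromosome at chr17:34856374-34862518, minus strand (ENSMUSG00000090231). It had 1.41 CPM in Ctr 1, 9.32 CPM in Ctr 2 and 13.5 CPM in Ctr 3, against 93.1 CPM in αGlu 1, 1120 CPM in αGlu 2 and 699 CPM in αGlu 3. The groups did not overlap, and the lowest αGlu value was 6.89 times the highest Ctr value. Ctr 1 rested on 31 reads and was well below the other Ctr libraries, which had 223 and 291 reads, while the αGlu libraries had 1623, 35582 and 19071. Relative to the Ctr mean, Cfb was 11.5 times as high in αGlu 1, 139 times in αGlu 2 and 86.6 times in αGlu 3. Its log2 fold change of 6.30 ± 1.28 (SE; 95% CI 3.16 to 9.44) was the 14th highest of all genes tested, with an adjusted p of 0.149 in edgeR's quasi-likelihood test. The adjusted p was 0.00122 at an estimate of 6.81 without αGlu 1, and 1.18e-05 in DESeq2. A read-through gene model, Gm20547, overlaps Cfb and the adjacent C2 gene on the same strand, and was assigned 5, 21 and 41 reads in Ctr and 16, 1 and 55 in αGlu. C2, the classical-pathway counterpart of Cfb, lies upstream of it on the same strand, with 85 bases between the genes. C2 had 0.636, 4.56 and 2.55 CPM in Ctr and 2.06, 3.24 and 1.98 CPM in αGlu. These levels overlapped, with an estimated log2 fold change of -0.08 ± 0.65 (SE).

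Cfp encodes properdin, which stabilizes the alternative convertase, at chrX:20925454-20931555 on the minus strand (ENSMUSG00000001128). It had 262, 241 and 304 CPM in Ctr 1, 2 and 3, which is a narrow range. In αGlu 1 it had 272 CPM, inside the Ctr range, and in αGlu 2 and αGlu 3 it had 1078 and 1250 CPM. The groups therefore overlapped through αGlu 1 alone. The log2 fold change was 1.69 ± 0.54 (SE; 95% CI 0.36 to 3.02), with an adjusted p of 0.163 in edgeR's quasi-likelihood test. Without αGlu 1 the estimate was 2.11 and the adjusted p 0.000106, and DESeq2 on all libraries gave an adjusted p of 0.0186.

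Among the receptors, the C3a receptor gene C3ar1 (ENSMUSG00000040552; chr6:122847138-122856161, minus strand) was the most abundant. Its levels were 920, 1202 and 1201 CPM in Ctr and 1226, 863 and 825 CPM in αGlu 1, 2 and 3. The highest value of all was in αGlu 1 and the lowest ones were in αGlu 2 and αGlu 3, so the groups overlapped. The log2 fold change was -0.19 ± 0.21 (SE), with a 95% CI from -0.71 to 0.34, and the adjusted p was 0.584 in edgeR's quasi-likelihood test. Without αGlu 1 the estimate was -0.40 with an adjusted p of 0.0696, under the fold limit for a call.

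C5ar1, the main receptor for the C5 fragment C5a, and C5ar2, a second C5a receptor that does not couple to G proteins, are neighbours on the minus strand of chromosome 7. C5ar1 (ENSMUSG00000049130) spans chr7:16246743-16259540 and C5ar2 (ENSMUSG00000074361) chr7:16234585-16244154, with 2588 bases between them. C5ar1 had 109, 78.9 and 74.4 CPM in Ctr and 70.8, 86.3 and 118 CPM in αGlu. Those ranges almost coincide, and the log2 fold change was 0.07 ± 0.23 (SE; 95% CI -0.51 to 0.64) with an adjusted p of 0.867 in edgeR's quasi-likelihood test. Its sign turned when single libraries were left out, to -0.0076 without Ctr 2, -0.041 without Ctr 3 and -0.15 without αGlu 3, and was positive at 0.22 without αGlu 1. C5ar2 had 11.9, 11.9 and 10.1 CPM in Ctr and 7.46, 2.93 and 3.92 CPM in αGlu. All αGlu libraries were below all Ctr libraries, on 218 to 285 reads per Ctr library and 93 to 130 reads per αGlu library, and the Ctr mean was 2.37 times the αGlu mean. The log2 fold change of C5ar2 was -1.26 ± 0.35 (SE; 95% CI -2.11 to -0.41), with an adjusted p of 0.158 in edgeR's quasi-likelihood test. It was -1.73 without αGlu 1, with an adjusted p of 0.000692, and DESeq2 on all libraries gave an adjusted p of 0.0175.

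Cd55 (ENSMUSG00000026399; chr1:130439027-130462744, minus strand) was the least abundant of the 7 genes in Ctr cells. It had 16, 33 and 37 reads in Ctr 1, 2 and 3, or 0.727, 1.38 and 1.72 CPM. In αGlu 1 it had 27 reads and 1.55 CPM, inside the Ctr range, whereas αGlu 2 had 285 reads and 8.97 CPM and αGlu 3 had 665 reads and 24.4 CPM. Its adjacent copy Cd55b had 0 reads in all 6 libraries. The log2 fold change was 3.19 ± 0.97 (SE; 95% CI 0.81 to 5.57) with an adjusted p of 0.160 in edgeR's quasi-likelihood test, and it was 2.06 without αGlu 3, the library with the highest level. Without αGlu 1 it was 3.70 with an adjusted p of 0.00219, and DESeq2 on all libraries gave 0.00555.

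Levels of different genes were compared per transcript length, in the deposited TPM values, which scale reads by transcript length and depth. In Ctr cells C3ar1 came first at 775 ± 101 TPM (SD, n = 3), followed by Cfp at 468 ± 54.9 TPM. C3 at 110 ± 30.9 TPM and C5ar1 at 103 ± 24.3 TPM did not differ beyond their spread, nor did C5ar2 at 9.57 ± 0.942 TPM and Cfb at 8.55 ± 6.47 TPM, and Cd55 was last at 0.789 ± 0.303 TPM. In αGlu 1 the order was C3ar1 at 883 TPM, Cfp at 486 TPM, C3 at 316 TPM, Cfb at 102 TPM, C5ar1 at 85.5 TPM, C5ar2 at 6.49 TPM and Cd55 at 0.990 TPM. In αGlu 2 and αGlu 3 the components stood above the receptors. C3 had 2320 and 2395 TPM there, Cfp 1989 and 2368 TPM and Cfb 1270 and 814 TPM, against 642 and 630 TPM for C3ar1 and 108 and 151 TPM for C5ar1. Cd55, at 5.92 and 16.5 TPM, exceeded C5ar2, at 2.63 and 3.62 TPM, in those libraries only. Ranked among all genes, C3 went from places 936 to 1569 in Ctr to place 427 in αGlu 1 and places 41 and 42 in αGlu 2 and 3. Cfb went from places 6226 to 10576 in Ctr to place 1344 in αGlu 1 and places 87 and 146 in αGlu 2 and 3.

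**Figure D2:**
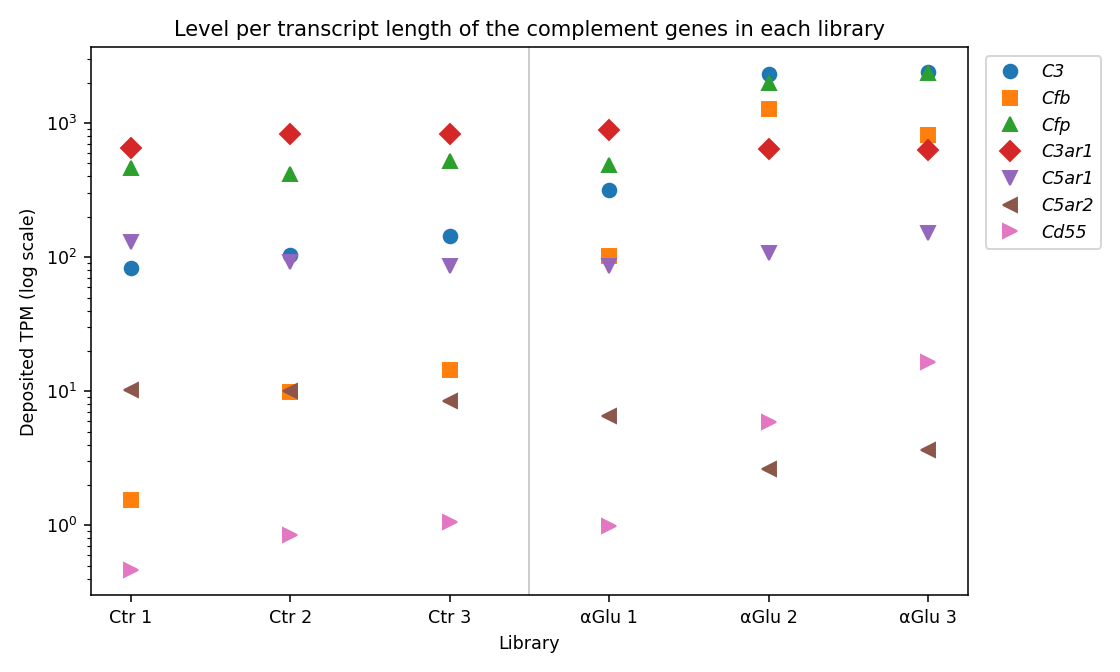
Deposited TPM of the 7 complement genes (log axis) in each of the 3 Ctr and 3 αGlu libraries, with 1 symbol per gene. C3ar1 is the highest symbol in all Ctr libraries and in αGlu 1, whereas C3, Cfp and Cfb lie above it in αGlu 2 and αGlu 3.

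The balance between partners followed from these levels and is given as a description of pairs chosen after their values were seen. TPM of C5ar1 over C5ar2 was 12.8, 9.17 and 10.2 in Ctr, 13.2 in αGlu 1, and 40.9 and 41.6 in αGlu 2 and αGlu 3. C3 over Cfb was 54.0, 10.5 and 10.05 in Ctr, and 3.09, 1.83 and 2.94 in αGlu. All αGlu libraries thus had less C3 mRNA per Cfb mRNA than any Ctr library, although both were more abundant. C3 over its fragment's receptor C3ar1 was 0.126, 0.125 and 0.172 in Ctr, 0.357 in αGlu 1, and 3.61 and 3.80 in αGlu 2 and αGlu 3, so C3 mRNA exceeded that of the receptor in αGlu 2 and αGlu 3 only. C3ar1 over C5ar1 overlapped between groups, at 5.02, 9.10 and 9.64 in Ctr and 10.3, 5.97 and 4.18 in αGlu.

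The place of αGlu 1 between the Ctr and the other αGlu libraries varied among the 7 genes. On the log2 CPM scale, C3 in αGlu 1 was 1.52 above the Ctr mean and Cfb was 4.02 above it, against 4.35 and 7.27 for the mean of αGlu 2 and αGlu 3. Cfp was 0.02 and Cd55 0.34 above the Ctr mean in αGlu 1, against 2.11 and 3.53. C5ar2 was at a difference of -0.59 from the Ctr mean in αGlu 1 and of -1.71 in the other αGlu libraries. C3ar1 was at 0.16 in αGlu 1 and -0.38 in the others, and C5ar1 at -0.28 and 0.23, so for both receptors the signs were opposite.

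Counting only whether the groups overlapped in CPM, 2 of the 7 genes, C3 and Cfb, were higher in all αGlu libraries, against 14.2% of all genes tested. C5ar2 alone was lower in all, 1 of 7, against 15.9% of all genes tested, and the ranges of the other 4 overlapped. Without αGlu 1, 6 of the 7 genes did not overlap, with Cfp and Cd55 also higher and C3ar1 also lower, in a set of libraries where 33.6% of all genes tested were higher and 32.2% lower without overlap. Without Ctr 3 the number was 5, with Cfp and Cd55 added, and the shares over all genes tested were 21.1% higher and 20.9% lower.

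**Figure D3:**
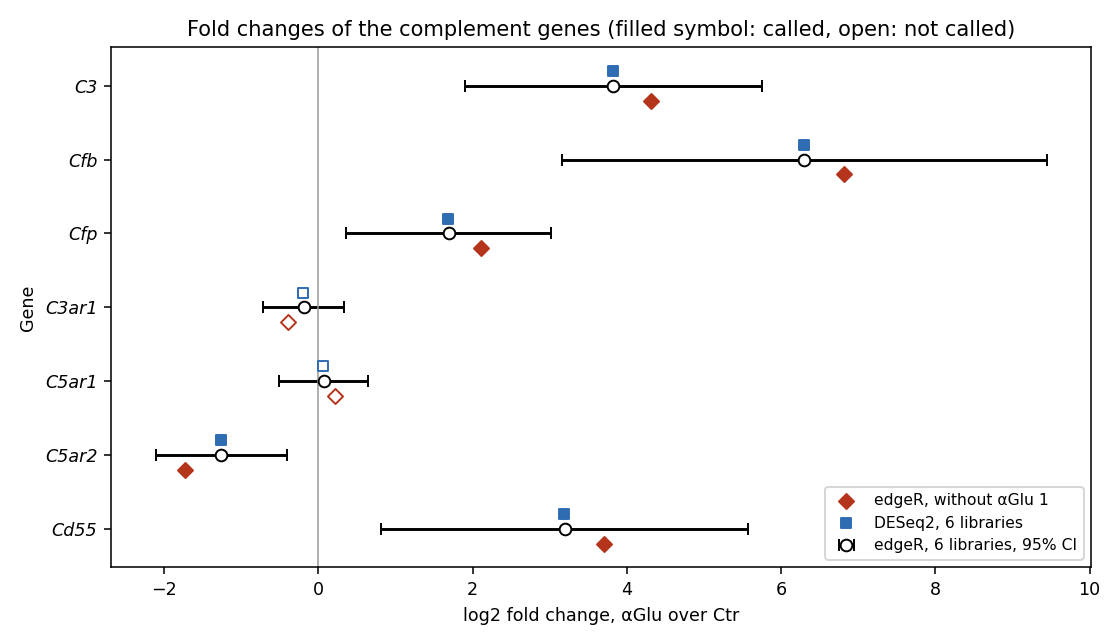
Log2 fold change, αGlu over Ctr, of the 7 complement genes in edgeR's quasi-likelihood test on 6 libraries (circles with 95% CI), in the same test without αGlu 1 (diamonds) and in DESeq2 on 6 libraries (squares). Filled symbols were called, which holds for C3, Cfb, Cfp, C5ar2 and Cd55 in the latter fits, and the open circles show that none was called in the first.

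The promoters of C3 and C5ar2 are shown because C3 had the most reads among the genes that were higher and C5ar2 was the gene that was lower. The sequences are the 250 bases before a start site in the RefSeq table (GRCm38.p6), written 5′ to 3′ along the gene's own minus strand. Capitals mark matches to 6 motifs searched on both strands: NF-κB (GGGANNTTCC), the STAT gamma-activated site (TTCNNNGAA), the STAT6 site (TTCNNNNGAA), ISRE (GAAANNGAAA), C/EBP (TTGCNNAA) and PU.1 (GAGGAA). C5ar2 has 2 start sites in the table, and the upstream one coincides with the annotated 5′ start of the gene.
C3, chr17:57228137-57228386: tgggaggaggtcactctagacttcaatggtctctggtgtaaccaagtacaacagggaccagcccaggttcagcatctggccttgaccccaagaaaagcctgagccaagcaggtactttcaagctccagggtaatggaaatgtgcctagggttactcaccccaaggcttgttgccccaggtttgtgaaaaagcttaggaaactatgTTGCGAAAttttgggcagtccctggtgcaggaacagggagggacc
C5ar2 upstream start, chr7:16244155-16244404: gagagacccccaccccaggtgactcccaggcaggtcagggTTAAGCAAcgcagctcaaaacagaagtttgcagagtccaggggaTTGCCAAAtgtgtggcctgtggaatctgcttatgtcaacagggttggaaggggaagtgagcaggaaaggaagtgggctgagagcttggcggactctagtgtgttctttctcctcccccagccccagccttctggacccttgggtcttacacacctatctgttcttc
C5ar2 downstream start, chr7:16242332-16242581: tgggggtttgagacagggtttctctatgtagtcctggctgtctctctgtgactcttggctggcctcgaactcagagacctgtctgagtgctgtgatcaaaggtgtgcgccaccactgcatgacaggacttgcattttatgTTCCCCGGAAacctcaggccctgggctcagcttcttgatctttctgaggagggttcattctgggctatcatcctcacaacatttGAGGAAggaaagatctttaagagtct

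C3 held 1 match, a C/EBP site at 45 to 38 bases before the start. C5ar2 held 2 C/EBP matches before its upstream start, at 210 to 203 bases on the opposite strand and at 166 to 159 bases. Before its downstream start it held a STAT6 match at 110 to 101 bases and a PU.1 match at 26 to 21 bases. Of the 7 genes, 6 had an entry in the table (all but Cfb), and C3ar1, C5ar1, Cfp and Cd55 held none of these letters in this window. Among all 32536 promoters of this length, 9.57% held the C/EBP letters, 5.89% the STAT6 letters, 23.4% the PU.1 letters, 7.04% the gamma-activated site, 2.98% the ISRE and 1.21% the NF-κB letters. A match is a description of the sequence only.

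By likeness of profile, each of the 7 genes was set against all other tested genes whose log2 CPM averaged at least 3, using the root mean square difference of log2 CPM centred on each gene's own mean over the 6 libraries. The nearest to C3 were Cst7 at 0.283 and Nupr1 at 0.354. Cst7 had 3.86, 4.85 and 6.08 CPM in Ctr and 23.9, 124 and 128 CPM in αGlu, with an intermediate level in αGlu 1 as in C3. The nearest to Cfb were the chemokine genes Ccl8 at 0.639 and Ccl5 at 0.690, which is the widest distance to a nearest gene among the 7. Ccl5 had 3.59, 7.86 and 13.5 CPM in Ctr and 274, 1090 and 1031 CPM in αGlu. The nearest to Cfp were Il1rap at 0.0847 and Irak3 at 0.101, and Irak3 had 17.7, 17.2 and 18.5 CPM in Ctr, 18.2 CPM in αGlu 1, and 81.1 and 91.7 CPM in αGlu 2 and 3. For Cd55 they were Ccl2 at 0.332 and Orai2 at 0.430, and for C5ar2 Prkch at 0.123 and Vsir at 0.139. The flatter profiles had close neighbours, Stoml1 at 0.0435 and Keap1 at 0.0437 for C3ar1 and Myo7a at 0.0701 and Cbx5 at 0.0983 for C5ar1. Among the 7 genes themselves the nearest pairs were C3ar1 with C5ar1 at 0.500, C3ar1 with C5ar2 at 0.640 and C3 with Cd55 at 0.651. The farthest pair was C5ar2 with Cfb at 4.17.

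A list of 49 other complement genes was described beside the 7. None of its 20 tested genes was called by edgeR's quasi-likelihood test, 7 had an unadjusted p under 0.05 (4 higher, 3 lower, against 24.7% of all genes tested), and the median log2 fold change was 0.04. The groups did not overlap for 4 higher and 5 lower genes of the 20, against 14.2% and 15.9% of all genes tested. DESeq2 called 5 higher and 3 lower of 24 tested, against 4.23% and 3.93% of all its genes. The quasi-likelihood test without αGlu 1 called 6 higher and 5 lower of 21, against 8.05% and 10.5%. No reads at all were found for 14 genes.

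The 3 chains of C1q, the recognition molecule of the classical pathway, differed in how their levels compared between the groups. C1qb had 1601 to 1965 CPM and C1qc 1005 to 1180 CPM across all 6 libraries, with log2 fold changes of 0.04 and 0.10. C1qa had 213, 253 and 283 CPM in Ctr, 276 CPM in αGlu 1, and 571 and 697 CPM in the other αGlu libraries. The groups overlapped through αGlu 1, and the log2 fold change was 1.04 ± 0.35 (SE). C1ra, a protease of the C1 complex, had 6.86, 9.70 and 13.5 CPM in Ctr and 15.6, 71.6 and 74.7 CPM in αGlu, without overlap, at 2.43 ± 0.62 (SE). Without αGlu 1 the quasi-likelihood test called both, C1qa at 1.34 (adjusted p 0.000956) and C1ra at 2.87 (adjusted p 0.000312). The partner protease C1s1 had 4, 2 and 4 reads in Ctr, 0 in αGlu 1, and 243 and 142 in αGlu 2 and 3, and did not pass the count filter with all 6 libraries. It was called without αGlu 1, at 5.39 with an adjusted p of 0.000156 in edgeR's quasi-likelihood test, and by DESeq2 on all libraries, at 4.83 with an adjusted p of 0.0133. C4b was at 1.97 and C4a at 0.55 on the log2 scale, against 2.23 (called) and 0.53 without αGlu 1. Both had at most 104 reads a library, and as near-identical copies their values are uncertain.

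Of 9 lectin pathway genes 3 were tested, and the 2 recognition molecules among them had lower levels in αGlu. Colec12, a scavenger receptor of the collectin family, had 60.0, 63.7 and 57.0 CPM in Ctr and 28.3, 19.9 and 19.2 CPM in αGlu. The groups did not overlap, and the log2 fold change was -1.43 ± 0.17 (SE) at an adjusted p of 0.149 in edgeR's quasi-likelihood test. Ficolin A (Fcna) had 10.3, 15.3 and 14.6 CPM in Ctr and 8.26, 4.66 and 3.92 CPM in αGlu, at -1.27 ± 0.32 (SE). It did not overlap between groups either, and both were called lower by DESeq2 and, at -1.63 for Colec12 and -1.64 for Fcna, by the quasi-likelihood test without αGlu 1. The protease Masp1 was at 0.13 on at most 25 reads.

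Of the receptors for fixed C3 fragments, the subunits differed. Itgax, the α chain of complement receptor CR4 (CD11c), had 1548, 1224 and 1175 CPM in Ctr, 418 CPM in αGlu 1, and 17.6 and 13.8 CPM in the other αGlu libraries, all below Ctr. Its log2 fold change was -3.14 ± 1.38 (SE), with an adjusted p of 0.221 in edgeR's quasi-likelihood test, and -6.40 without αGlu 1. Itgam, the α chain of CR3 (CD11b), had 526, 534 and 425 CPM in Ctr and 324, 1035 and 1305 CPM in αGlu, so the groups overlapped through αGlu 1, below all Ctr libraries. Their shared β chain Itgb2 was lower without overlap, at 1955, 2005 and 1839 CPM in Ctr and 1380, 783 and 664 CPM in αGlu. Without αGlu 1 the quasi-likelihood test called Itgax and Itgb2 lower, the latter at -1.42, and Itgam higher at 1.24. Vsig4, the complement receptor of resident macrophages, had at most 53 reads and a log2 fold change of -1.99 ± 0.97 (SE). It was called at -2.86 without αGlu 1. Its groups overlapped with and without αGlu 1, as Ctr 1 had 0.318 CPM and αGlu 3 had 0.367 CPM.

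Of the regulators, Cr1l (Crry), which does in mice much of what CD55 and CD46 do on human cells, had 72.0 to 90.4 CPM in all libraries and a log2 fold change of 0.05 ± 0.11 (SE). Cd59a, which blocks the terminal complex, was at -0.30 ± 0.16 (SE), and at -0.46 without αGlu 1, under the fold limit. Cd46 was at 0.92 ± 0.34 (SE) on at most 40 reads, and was called at 1.003 without αGlu 1. Serping1, the C1 inhibitor, was at -0.87 on at most 21 reads. Factor D (Cfd), the protease that activates factor B, had 4 reads in Ctr 1 and 0 in the other libraries. Hc, which encodes mouse C5, had at most 1 read in a library, and the terminal components C6, C7, C8a, C8b and C9 had at most 2, while C8g, at 13 to 27 reads, had a log2 fold change of 0.28. The C5a receptors were thus measured in cells in which mRNA of C5 was barely detectable.

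**Figure D4:**
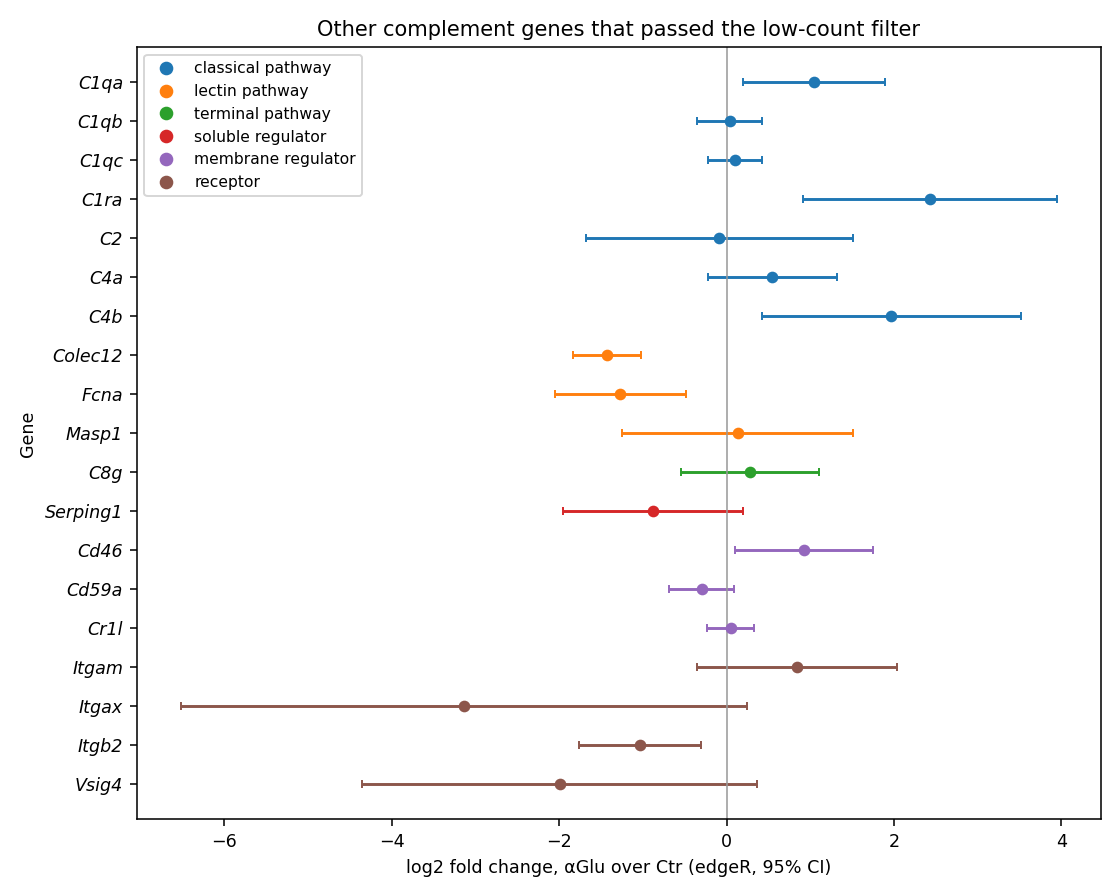
Log2 fold change, αGlu over Ctr, with the 95% CI of edgeR's quasi-likelihood test for 19 of the other complement genes that were tested, coloured by role. None was called, and intervals lie entirely above 0 for C1qa, C1ra, C4b and Cd46 and entirely below 0 for Colec12, Fcna and Itgb2.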

How the data were processed

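Messenger RNA was sequenced as stranded libraries from 3 Ctr and 3 αGlu cultures, grouped by the labels. Reads were handled by the authors in QIAGEN's RNA-seq Analysis Portal, and the submitters' processing notes name the build GRCm38. For the aligner, the annotation and the treatment of multiply mapped reads, details are not given in the sources used here. The deposited counts are whole numbers of exon reads per gene without normalization, and the deposited TPM values are scaled by the authors for transcript length and depth. Of 24 value columns 12 were used, and the RPKM and CPM columns were left out, as was 1 row with no gene name.

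Genes were filtered with filterByExpr (minimum count 10, minimum total 15) in edgeR 4.0.16 under R 4.3.3. TMM factors and a quasi-likelihood model containing only the group were fitted to the whole table. The two-sided tests were adjusted over 11933 genes by the method of Benjamini and Hochberg, and calls needed an adjusted p below 0.1 and a log2 fold change beyond 1 in either direction. CPM uses TMM-adjusted library sizes, and log2 CPM a prior count of 2. The fits were tested on simulated data with the same spread in all libraries, which does not cover a library that stands apart, as αGlu 1 does here. The study describes its repeats as independent experiments and states that repeats in primary cells come from different animals. The labels themselves tie no library to an animal. The p-values measure the spread between these libraries, which may in part be technical.

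The genes and lists were chosen with earlier results of these data known. The text names the 7 genes, the other complement genes that passed the filter (the values of 1 are not reported here), the 2 genes most like each of the 7 (these 7 and gene models aside, at a mean log2 CPM of 3 or more) and genes overlapping or copying them, and untested complement genes and the TPM ratios were chosen after their values were seen. Coordinates are from GENCODE M21 (GRCm38), which held all 7 identifiers. Alternatives were DESeq2 1.42.0, limma-voom (limma 3.58.1), RLE factors, library size alone, other filters, the replicate number as a block, and each library left out in turn.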

Additional observations from a re-analysis of the deposited data

How the results depend on the processing

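Across the alternatives tried, 114 values stayed the same, a number that pools log2 fold changes with counts. Those fold changes kept their direction and their side of the threshold, and those counts did not change. Another 11 log2 fold changes passed the threshold where they had not, 3 changed sign, and 10 counts moved. DESeq2 called 5 of the 7 genes in place of 0, with log2 fold changes of 3.82 for C3, 6.30 for Cfb, 1.68 for Cfp, 3.19 for Cd55 and -1.26 for C5ar2, and it called 8 other complement genes and 1119 genes in all. Over the fits that each left out 1 library, the log2 fold change ranged from 3.50 to 4.31 for C3, 5.62 to 6.88 for Cfb, 1.33 to 2.11 for Cfp, 2.06 to 3.70 for Cd55, -1.73 to -0.99 for C5ar2, -0.40 to -0.08 for C3ar1 and -0.15 to 0.27 for C5ar1. The sign of C5ar1 changed without Ctr 2 (-0.0076), Ctr 3 (-0.041) and αGlu 3 (-0.15). In the same fits 0 to 5 of the 7 genes, 0 to 11 other complement genes and 0 to 2290 of all genes were called, with the highest counts without αGlu 1, and 3 to 6 of the 7 genes did not overlap. The cause was not tested. With the replicate number as a block, Cfb was called (log2 fold change 6.22, adjusted p 0.0700 in edgeR's quasi-likelihood test), so that 1 of the 7 genes and 17 of all genes were called. Libraries with the same number had deviations that correlated at 0.08, 0.06 and 0.15 over the genes tested, each highest with its own number. These values are small, and the labels do not say that a number marks a shared culture or day. For the fragment level after this transfection, the study compared αGlu with Ctr by a paired test. It does not say whether these libraries were paired, and the correlations cannot decide it. limma-voom, RLE factors, library size alone and the other low-count filters changed no call. Over the 13 alternatives the adjusted p ranged from 1.50e-06 to 0.427 for C3, 1.18e-05 to 0.427 for Cfb, 0.000106 to 0.432 for Cfp, 0.00219 to 0.427 for Cd55, 0.000692 to 0.427 for C5ar2, 0.0696 to 0.887 for C3ar1 and 0.437 to 0.991 for C5ar1. With 3 libraries a group and 1 that stood apart, the intervals of C3, Cfb and Cd55 span several log2 units, and Cd55 rests on few Ctr reads.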
